A study of Mus musculus with 2 samples.

Results

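The adventitial fibroblast nuclei described here are 1952 of the 23494 nuclei kept from 2 mouse heart libraries, 754 of 12598 from the CF-KI library and 1198 of 10896 from the Control library. They were chosen by their own measured RNA. A nucleus was a member when it had at least 200 genes, at most 30% of its UMIs (unique molecular identifiers, one per captured RNA molecule) from mitochondrial genes, and at least 1 UMI of at least 3 of the 7 rule genes Pi16, Dpt, Clec3b, Pcolce2, Sfrp1, Islr and Serpinf1. It also needed at least 1 UMI of the 5 entry genes Pdgfra, Col1a1, Col1a2, Col3a1 and Dcn, and at most 1 UMI summed over 7 endothelial, immune and mesothelial genes. Both libraries were single-nucleus RNA sequencing of cardiac tissue from male C57Bl6/J mice aged 3.5 months that carried Tcf21-MerCreMer, a tamoxifen-inducible Cre recombinase driven by the fibroblast gene Tcf21, and all had tamoxifen injections. CF-KI animals were Tcf21-MerCreMer;Nlrp3-A350V/A350V, with a constitutively active form of the inflammasome sensor NLRP3 in fibroblasts. Control animals were Tcf21-MerCreMer;Nlrp3-WT/WT. The series record adds that the knock-in allele is silent in cells without Cre. Each genotype is 1 library, and how many animals went into it is not given. No test between genotypes was therefore possible, and every interval below is a 95% interval of counting error only.

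Adventitial fibroblasts sit in the collagen cuff around arteries and veins and along the organ surface, outside the muscle bundles where interstitial fibroblasts lie. They are known across organs for the peptidase inhibitor gene Pi16 and the matrix gene Dpt, and for the surface proteins CD34, CD248 and DPP4. They make microfibril and elastic matrix proteins, and in several tissues they have been described as a pool from which more specialised fibroblasts arise.

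The promoters of 4 genes are printed because the genes carry the main pattern within these nuclei: Pi16 defines it, Sema3c and Dpp4 were higher where Pi16 was high, and Cxcl14 was lower. Each is the 250 bases before a RefSeq start on GRCm38.p6, read 5′ to 3′ on the gene's strand: chr17:29318632-29318881 (plus) for Pi16, chr5:17574566-17574815 (plus) for Sema3c, chr2:62412232-62412481 (minus) for Dpp4 and chr13:56296552-56296801 (minus) for Cxcl14. The Pi16 and Sema3c windows lie inside the genes of the GENCODE annotation, which begin at 29317680 and 17574281. They are thus not upstream of every annotated start. Capitals mark matches, on either strand, to 6 short motifs that were searched. The TATA box was searched as TATAAA. The GC box, bound by Sp factors, was searched as GGGCGG. The box bound by NF-Y was searched as CCAAT. The site of AP-1, the factor made by the immediate early genes, was searched as TGANTCA. The site of TEAD factors, which act downstream of the Hippo pathway, was searched as GGAATG. The E-box of basic helix-loop-helix factors such as TCF21 was searched as CAGCTG.
Pi16: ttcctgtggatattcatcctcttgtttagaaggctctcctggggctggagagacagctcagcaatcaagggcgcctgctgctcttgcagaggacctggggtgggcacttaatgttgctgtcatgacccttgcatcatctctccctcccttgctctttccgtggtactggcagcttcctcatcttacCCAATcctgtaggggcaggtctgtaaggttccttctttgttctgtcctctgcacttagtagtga
Sema3c: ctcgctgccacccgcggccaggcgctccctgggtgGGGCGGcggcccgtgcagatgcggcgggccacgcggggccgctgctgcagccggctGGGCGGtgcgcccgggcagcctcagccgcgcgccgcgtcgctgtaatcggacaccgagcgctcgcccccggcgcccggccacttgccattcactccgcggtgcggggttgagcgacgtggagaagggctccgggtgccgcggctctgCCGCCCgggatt
Dpp4: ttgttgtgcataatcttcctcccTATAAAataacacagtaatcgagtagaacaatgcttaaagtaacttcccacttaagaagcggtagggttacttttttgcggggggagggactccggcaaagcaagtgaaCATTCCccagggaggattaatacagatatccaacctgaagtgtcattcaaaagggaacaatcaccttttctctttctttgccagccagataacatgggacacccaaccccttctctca
Cxcl14: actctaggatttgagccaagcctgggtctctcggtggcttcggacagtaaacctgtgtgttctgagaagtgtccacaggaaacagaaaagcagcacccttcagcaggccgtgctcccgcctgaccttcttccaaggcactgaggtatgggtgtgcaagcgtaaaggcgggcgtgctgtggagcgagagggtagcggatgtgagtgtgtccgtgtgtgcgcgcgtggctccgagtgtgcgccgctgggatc
The Pi16 window held a CCAAT match 64 bases before the start. The Sema3c window held 3 GC box matches, and the Dpp4 window a TATA box match 227 bases before the start and a TEAD match. None of the 6 letter strings was in the Cxcl14 window. Of 32851 promoter windows of this length, 12.4% held the TATA box, 32.7% the GC box, 33.8% the CCAAT box, 6.75% the AP-1 string and 12.6% the TEAD string, and 4271 windows held the E-box. No string was found in more than 1 of the 4 windows. A match is a description of the letters only.

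The libraries differed in ways that reach into these nuclei. Members had a median of 1454 UMIs and 14.5% mitochondrial UMIs in CF-KI, against 1560 UMIs and 7.66% in Control. Summed cardiomyocyte markers, all 12 of them detected, stood at 18281 counts per 1000000 non-mitochondrial UMIs (CPM) in CF-KI members and 6702 CPM in Control members, below the 39052 and 25360 CPM of the whole libraries. Airway epithelial genes had 0 UMIs in CF-KI members and 896 UMIs (441 CPM, with 1 of 8 genes at 0) in Control members. Globin and other erythroid genes were at 4361 and 1481 CPM. Some 46 barcodes occurred in both libraries, and 2 CF-KI members and 5 Control members carried one. A doublet caller marked 9.42% of CF-KI members and 2.34% of Control members. Of all barcodes with at least 200 genes it marked 15.3% in CF-KI and 3.02% in Control.

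The label held in part. Of the 4 markers Pi16, Dpt, Clec3b and Pcolce2, all were present in 11.9% of CF-KI members and 21.2% of Control members. Pi16 and Dpt were both present in 39.0% and 48.5%, and neither was present in 98 and 95 nuclei, the latter 7.93%. Pi16 was found in 62.9% of CF-KI members (1195 CPM, interval 1131 to 1263) and 70.9% of Control members (1652 CPM, 1596 to 1708), and Dpt, a dermatopontin that binds decorin, in 63.1% and 69.7%. In endothelial nuclei, which should lack it, Pi16 was in 8.46% and 11.4% at median depths of 1262 and 1082 UMIs. These genes chose the members, so the values describe the choice. Just inside the threshold, nuclei with 3 rule genes numbered 364 and 426. Just outside, nuclei with 2 numbered 887 and 736. Of 10 lung mesenchyme genes, 8 were detected in each library, at a summed 185 and 160.0 CPM of which Limch1 gave most (175 of 198 and 240 of 325 UMIs), and Tbx4 had 0 UMIs in both. Limch1 also belongs to the list of adventitial genes outside the rule used below, so the lists overlap there. Sox10, a glial marker, was at 0 in both, but the 6 Schwann cell markers together stood at 391 and 477 CPM in members against 134 and 166 CPM in the whole libraries, with Scn7a giving 369 of 418 and 888 of 970 UMIs. Endothelial markers summed to 338 and 200.3 CPM, pericyte markers to 331 and 338 CPM, and macrophage markers to 281 and 177 CPM. Tcf21, the gene whose promoter drives the Cre, had 133 UMIs in CF-KI members (124 CPM, 104 to 147) and 304 in Control members (150 CPM, 133 to 167), a log2 ratio of -0.26 whose interval of -0.57 to 0.03 holds 0. Nlrp3 itself had 0 UMIs in the members of either library, and the limits set by a count of 0 were 2.81 and 1.48 CPM. Over all kept nuclei it had 39 and 20 UMIs, and 3′ end counts cannot show the A350V variant.

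The members differed among themselves along their Pi16 count. Genes known from adventitial fibroblasts but not used by the rule stepped up with the Pi16 count in both libraries, and a set of interstitial fibroblast genes was lower where Pi16 was high. Cd248 (endosialin, a surface glycoprotein of perivascular stroma) was at 159, 242, 433 and 899 CPM in CF-KI nuclei with 0, 1, 2 to 4, and at least 5 Pi16 UMIs, and at 105, 196, 310 and 809 CPM in the same classes of Control. Sema3c, a secreted guidance cue, was at 79.7, 104, 288 and 723 CPM in CF-KI and 82.5, 100.3, 195 and 507 CPM in Control. Both genes were thus in the same order in each library.

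The classes held 280, 227, 175 and 72 CF-KI nuclei and 349, 307, 332 and 210 Control nuclei. They were set after the data were seen, on a gene of the rule: a nucleus without Pi16 had to reach 3 rule genes by other means. The 20 adventitial genes outside the rule summed to 3991 CPM (3788 to 4201) in CF-KI nuclei without Pi16 and 14092 CPM (13504 to 14698) in those with at least 5 UMIs. In Control the sums were 3724 CPM (3562 to 3892) and 10784 CPM (10486 to 11089). Over the same classes, 12 interstitial fibroblast genes summed to 7847 and then 5043 CPM in CF-KI, and 11298 and then 6927 CPM in Control.

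**Figure D1:**
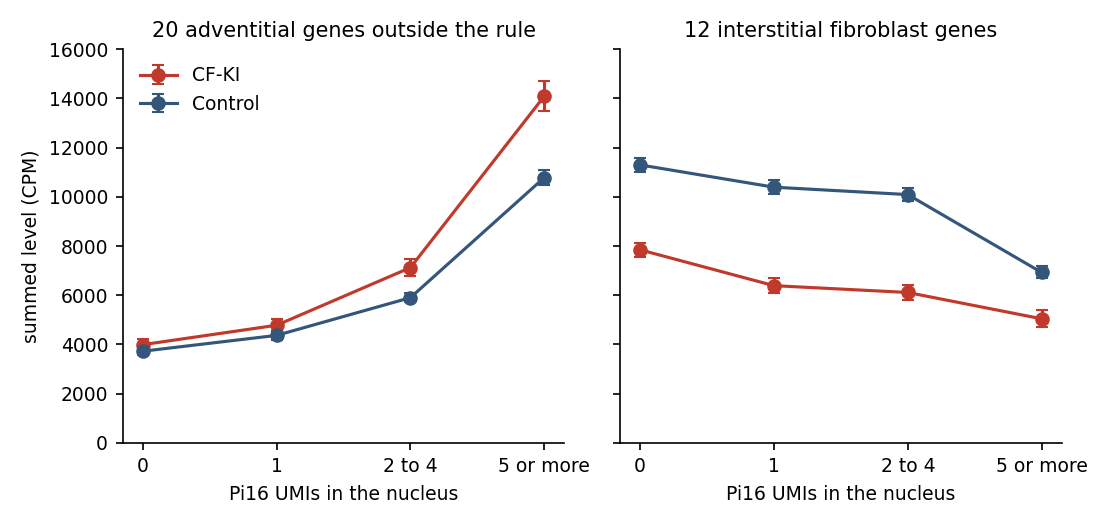
Summed level in CPM (vertical axis) of 20 adventitial genes outside the rule (left) and 12 interstitial fibroblast genes (right) in adventitial nuclei grouped by their Pi16 UMIs (horizontal axis), CF-KI in red and Control in blue, with 95% Poisson intervals of counting error. The left panel climbs to 14092 and 10784 CPM in the highest class of CF-KI and Control, and the right panel drops to 5043 and 6927 CPM.

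Between the nuclei with at least 5 Pi16 UMIs (Pi16-rich) and those with none (Pi16-negative), 14 of the 16 adventitial genes with enough UMIs (20 in each library) were at least 2-fold higher in both libraries with an interval above 0, where 1.72% of all 4777 genes tested were called higher and 0.691% lower. All 16 intervals lay above 0 in both libraries, where 4.9% of the 4777 genes had both intervals above 0 and 1.99% both below, and 12 of the 16 were in rank order over the 4 classes in both. The median log2 ratio was 2.02 in CF-KI and 1.59 in Control. Beyond Cd248 and Sema3c, Dpp4 (a surface peptidase) differed by a log2 of 2.39 (1.53 to 3.36) in CF-KI and 2.35 in Control, and Mfap5 (a microfibril glycoprotein) by 1.83 (1.61 to 2.05) and 1.77. In Pi16-negative nuclei Dpp4 was in 5.36% and 2.87%, near or below the 4.76% and 5.08% of endothelial nuclei, and in Pi16-rich nuclei in 38.9% and 19.05%. Fbn1, which encodes fibrillin-1, the backbone of microfibrils, went from 717 to 3055 CPM in CF-KI and from 681 to 1639 CPM in Control. Gfpt2 and Ugdh, which supply sugar precursors for hyaluronan and proteoglycans, were also higher: Gfpt2 by 1.68 and 2.06, and Ugdh from 113 to 541 CPM and from 103 to 261 CPM.

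Over all genes, the widest differences towards Pi16-rich nuclei, by the smaller of both libraries' ratios, were those of Tmem100 (a membrane protein of the BMP pathway), Sema3c, Cd248, Dpp4, Gm12840, Ly6c1, Mfap5, Emilin2, Klf4, Adgrd1, Spsb1 and Gfpt2, of which Sema3c, Cd248, Dpp4, Ly6c1, Mfap5 and Gfpt2 belong to the adventitial list. Tmem100 was at 365 against 35.7 CPM in CF-KI and 350.1 against 28.1 CPM in Control. Klf4, a transcription factor, was at 1147 against 343 CPM and 835 against 246 CPM, and endothelial nuclei held 414 and 412 CPM of it. Ly6c1, unlike Klf4, was higher in endothelial nuclei, at 755 and 873 CPM, than in Pi16-rich members at 261 and 261 CPM. Cd248 was rare in endothelial nuclei: 54 of 72 CF-KI and 138 of 210 Control Pi16-rich nuclei had a UMI, the latter 65.7%, against 3.53% and 2.30% of endothelial nuclei. Pi16-rich nuclei were also deeper, with median UMIs of 2281.5 and 2120.5 against 1391 and 1462, and their cardiomyocyte markers were lower in CF-KI (11160 against 19001 CPM) and closer in Control (6112 against 7030 CPM). After every nucleus was thinned to 500 UMIs, the list's median log2 ratio between nuclei with at least 2 and with 0 Pi16 UMIs was 1.41 in CF-KI and 1.29 in Control.

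**Figure D2:**
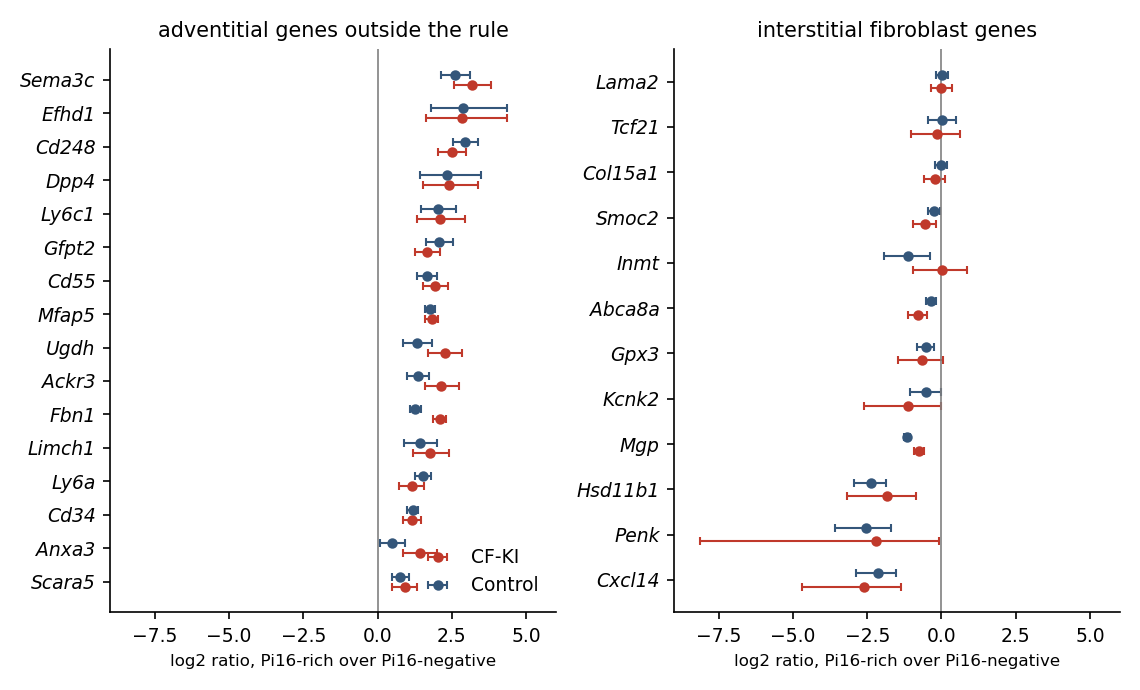
Log2 ratio of CPM in nuclei with at least 5 Pi16 UMIs over nuclei with none (horizontal axis) for each adventitial gene outside the rule (left) and each interstitial fibroblast gene (right), CF-KI in red and Control in blue, with 95% intervals of counting error. All 16 genes at left lie above 0 in both libraries, whereas Tcf21, Lama2 and Col15a1 at right lie near 0 and Cxcl14, Penk and Hsd11b1 well below it.

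Several interstitial fibroblast genes were higher in Pi16-negative members. Hsd11b1, which regenerates active glucocorticoid, was at 195 CPM against 52.1 CPM in Pi16-rich nuclei of CF-KI and at 396 against 76.1 CPM in Control. Cxcl14, a chemokine of stromal cells, was at 179 against 26.1 CPM and 234 against 52.2 CPM. By the 2-fold call 2 of 11 interstitial genes were lower in Pi16-rich nuclei of both libraries. By interval alone, for which 1.99% is the share over all genes, 7 of 12 were below 0 in both (Abca8a, Cxcl14, Hsd11b1, Kcnk2, Mgp, Penk and Smoc2) and 0 had intervals above it. That share is over the genes tested by the 2-fold call, which did not take in all 12. Tcf21 did not follow Pi16: it was at 132 and 117 CPM in Pi16-negative and Pi16-rich CF-KI nuclei, and at 152 and 154 CPM in Control. The cardiac transcription factors Tbx20 and Gata6 also had intervals that held 0, and 0 of 7 such factors stood apart in both libraries.

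Other wide differences towards Pi16-negative nuclei were those of Ccl2, Hbb-bs, Apoe, G0s2, Spon1, Fmo2, Col6a3, Col6a6 and Hbb-bt. Hbb-bt did not fall steadily with Pi16 in CF-KI. It had 51 UMIs in Pi16-negative nuclei and 307 in those with at least 2 Pi16 UMIs, of which 1 nucleus held 268. Apoe, a lipid carrier, was at 2552 against 808 CPM in CF-KI and at 4060 against 959 CPM in Control, but 66.5% and 70.7% of endothelial nuclei also had a UMI of it. The share of Pi16-negative nuclei with Apoe, 65.4% and 72.2%, was close to that background, while the level in endothelial nuclei was 1305 and 2050 CPM. Fmo2 was in 17.9% and 19.6% of endothelial nuclei and in 13.6% and 24.6% of Pi16-negative members. Ccl2, the monocyte chemokine, came from few nuclei: 5 nuclei held 83.1% of its 77 UMIs in Pi16-negative CF-KI nuclei and 96.4% of its 110 UMIs in Control, with 102 in 1 nucleus. Col6a3, the large chain of collagen VI, was broader, with UMIs in 32.5% and 49.9% of Pi16-negative nuclei against 6.41% and 8.32% of endothelial nuclei.

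The fibrillar and elastic matrix genes differed less with Pi16. By the 2-fold call, 3 of 28 tested were higher in Pi16-rich nuclei and 1 lower. By interval alone, 10 had intervals above 0 in Pi16-rich nuclei of both libraries, among them Col14a1, Efemp1, Fbln2, Mmp2, Tnxb and Loxl1 (chosen here after their values were seen), and 2, Col5a3 and Col6a3, had intervals below 0. Of 18 immediate early and stress genes, 6 had intervals above 0 and 0 below, while the 2-fold call gave 2 of 15. Of 15 fibroblast transcription factors, Ebf1 was the 1 with intervals above 0, and 0 had them below. Over all 4777 genes tested, 4.9% had both intervals above 0 and 1.99% both below. Against that share, 1 of 15 does not set these factors apart. The 4777 genes are those tested by the 2-fold call, which took in 11 of these factors and 15 of the immediate early genes. For both lists the interval counts thus include genes outside the 4777.

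Against other fibroblast nuclei, members were higher in adventitial genes, but also in fibroblast genes of other kinds. Other fibroblast nuclei had at least 2 entry genes and at most 1 rule gene, and numbered 3449 and 2440. Of 20 adventitial genes outside the rule, 14 were at least 2-fold higher in members of both libraries and 0 were lower, where 6.59% of 11654 genes were called higher and 5.55% lower. Cd248 had 354 CPM in members and 43.5 CPM in other fibroblast nuclei of CF-KI, and 344 and 31.5 CPM in Control. Myoc, Efhd1, C7, Ccn3, Tmem100, Col14a1, Lrrn4cl, Lrrc17, Mfap5, Qpct and Fbn1 were the other widest differences. The lowest in members were D830032E09Rik, Myh7b, Gm13479, Tmem108, BB218582, Inpp5d, Lrrc31, D830005E20Rik, Mhrt, P2ry14, Hbb-bt and Kbtbd12, which include the cardiomyocyte transcripts Myh7b and Mhrt. This comparator was poor. Cardiomyocyte markers in it stood at 96.3% and 86.1% of their level in the whole library, against 47.8% and 30.1% in members. Also higher in members were 25 of 31 fibrillar matrix genes, 9 of 12 interstitial genes and 8 of 12 basement membrane genes. The comparison thus does not set adventitial genes apart from other fibroblast genes. A second comparator was therefore added, the 220 and 231 other fibroblast nuclei in which entry genes made up at least 1.5% of non-mitochondrial UMIs. That limit was not applied to the members, of which 355 in CF-KI and 818 in Control would pass it. The 2 sides were thus not chosen alike for matrix RNA.

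Against those collagen-rich nuclei, 9 of 17 adventitial genes were at least 2-fold higher in both libraries, with median log2 ratios of 1.11 and 1.21, where 0.406% of 8133 genes were called higher and 0.172% lower. In the same comparison 3 of 4 erythroid genes were called higher in members, with medians of 1.29 and 1.53, and their part in the result was not tested. None of 28 fibrillar matrix genes and none of 12 interstitial genes was called in either direction (0 of each). Myoc, which encodes myocilin, was at 270 against 58.8 CPM in CF-KI and 199 against 24.99 CPM in Control. Mhrt, a cardiomyocyte transcript, was also among the 12 widest, at 264 against 21.4 CPM and 229 against 29.98 CPM. Efhd1, Sema3c, Cd248, Tmem100, Lrrn4cl and Gfpt2 were among the 12 widest. Ndufa4l2 and Gpihbp1, genes of capillary and mural cells, and the muscle transcription factor gene Msc were lower in members, Ndufa4l2 at 30.9 against 112 CPM and 48.2 against 139.9 CPM. The collagen-rich nuclei were shallower, with medians of 961 and 877 UMIs, and few rule genes was how they were chosen. Mesothelial nuclei, from cells that line organ surfaces, numbered 246 and 364 that were not members. In Control they held 963 CPM of the airway gene Scgb1a1, against 241 CPM in members, and their organ of origin was not tested. The comparison with them gave 6.19% of 9137 genes higher in members and 6.35% lower. Ccl2, Myoc, Cilp, Has2 and Col8a1 were highest in members by that measure, and Muc16, Krt19, Lrrc31, Cobl and Lrp2 lowest. Of 18 adventitial genes, 10 were higher and 4 lower in members than in mesothelial nuclei. Muc16, a mesothelial mucin, was at 14.0 against 1546 CPM in CF-KI and 8.37 against 1193 CPM in Control.

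Adventitial nuclei were 5.99% of kept nuclei in CF-KI (5.58 to 6.41) and 10.99% in Control (10.4 to 11.6), a difference of -5.01 percentage points (-5.74 to -4.29). Nuclei with exactly 2 rule genes were 7.04% and 6.75%, a difference of 0.29 points whose interval of -0.37 to 0.94 holds 0. Over the classes with 0, 1, 2 to 4 and at least 5 Pi16 UMIs the differences were -0.98, -1.02, -1.66 and -1.36 points. Pi16-negative members were 2.22% and 3.20% of kept nuclei, and Pi16-rich members 0.572% (0.447 to 0.719) and 1.93% (1.68 to 2.20). Of the members themselves, 9.55% were Pi16-rich in CF-KI and 17.5% in Control, a difference of -7.98 points (-11.01 to -4.84). In nuclear data a smaller share cannot be told from fewer detected rule genes per nucleus. When the rule was applied after thinning every nucleus to 500 UMIs the shares were 1.29% and 3.96%. Among collagen-rich fibroblast nuclei, members were 50.6% in CF-KI and 65.1% in Control.

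**Figure D3:**
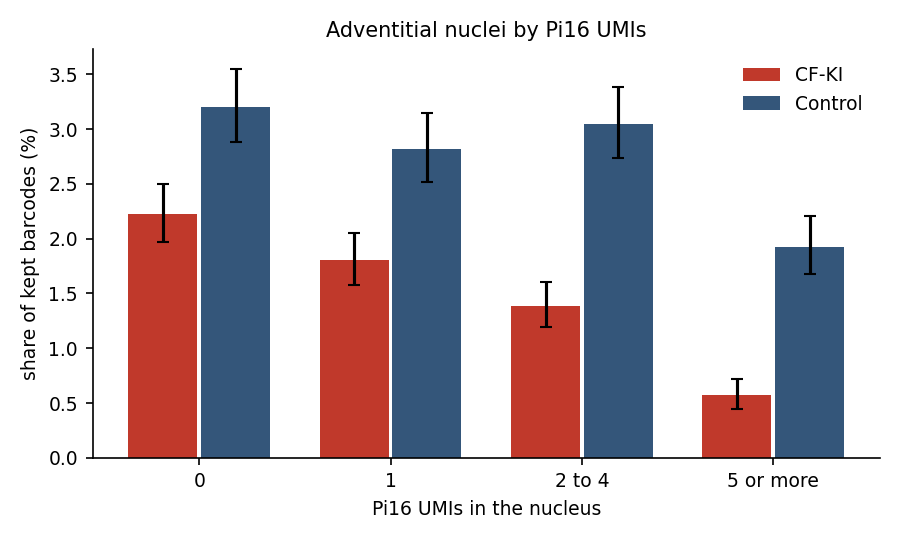
Share of kept nuclei (vertical axis, percent) that were adventitial nuclei with 0, 1, 2 to 4 or at least 5 Pi16 UMIs (horizontal axis), CF-KI in red and Control in blue, with exact binomial 95% intervals. Control is higher in each class, from 3.20% against 2.22% without Pi16 to 1.93% against 0.572% with at least 5 UMIs.

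Within the members, fibrillar and basement membrane RNA leaned lower in CF-KI by less than 2-fold for most genes, and cardiomyocyte and respiratory chain RNA was higher. Of 10799 genes with at least 20 UMIs over both libraries, 396 (3.67%) were at least 2-fold higher in CF-KI with an interval above 0, and 210 (1.94%) at least 2-fold lower. The median log2 ratio of all of them was 0.03, with 52.2% above 0 and 47.8% below. Intervals lay above 0 for 11.3% of genes and below 0 for 9.57%. These shares are the background of the counts by sign and by interval given below for all members. These are differences between 2 libraries, with no replicate check. All 5 entry genes were lower in CF-KI as well, with a median log2 ratio of -0.47 and Dcn at -0.52. Cardiomyocyte markers, used to estimate free RNA, stood at 47.8% of their whole-library level in CF-KI members and 30.1% in Control members. Beyond the subtraction described below, the part of free RNA in the fibroblast gene ratios was not tested. Among the 390 CF-KI and 867 Control members with 5 to 15% mitochondrial UMIs, whose medians were 11.5% and 8.32%, the list medians given below were -0.47 for fibrillar matrix, -0.52 for basement membrane, -0.62 for interstitial and 0.22 for adventitial genes.

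All 31 fibrillar and elastic matrix genes had a log2 ratio below 0, 26 of them with an interval below 0, and 3 were 2-fold lower. The median was -0.41, from -0.04 for Col14a1 to -2.15 for Fbn2, which had 3 and 29 UMIs. Eln, which encodes elastin, was at 241 CPM (213 to 273) in CF-KI and 543 CPM (512 to 576) in Control, a log2 ratio of -1.17 (-1.37 to -0.97). In endothelial nuclei Eln was at 122 and 319 CPM, a log2 ratio of -1.39 (-1.55 to -1.23). The 12 basement membrane genes were all below 0, with a median of -0.48. Lamb1, a laminin chain, was lowest at 582 against 905 CPM, and Col4a2 highest at 299 against 309 CPM.

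The interstitial fibroblast genes differed by a median of -0.51, with 11 of 12 below 0 and 10 intervals below 0. Gpx3, a secreted glutathione peroxidase, was at 170 CPM (146 to 197) in CF-KI members and 416 CPM (389 to 445) in Control members, a log2 ratio of -1.29 (-1.53 to -1.06). It was in 19.2% and 36.4% of members, and its log2 ratio was -1.24 in Pi16-negative members and -1.32 in those with at least 2 Pi16 UMIs. In endothelial nuclei it was -0.32 (-0.64 to 0.01). Penk, an enkephalin precursor, had 29 UMIs in CF-KI against 196 in Control (log2 -1.81, -2.45 to -1.26). Inmt was the 1 gene of the list above 0, at 86.0 and 72.3 CPM with an interval of -0.14 to 0.64.

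Of 17 growth factor and guidance genes, 13 were below 0, 7 had intervals below 0 and 2 above, and 2 were 2-fold lower, with a median of -0.50. The list's median was -0.33 in endothelial nuclei, where 10 of 18 intervals lay below 0, and -0.28 in collagen-rich other fibroblast nuclei. Over all genes in endothelial nuclei, 2371 of 12858 intervals lay below 0. Igf1, the insulin-like growth factor, was at 114 CPM (94.8 to 136) and 244 CPM (223 to 266), and Fgf7, an epithelial growth factor, had 8 and 39 UMIs. Igfbp5 went the other way, with 672 and 697 UMIs (629 and 343 CPM, log2 0.87). Its ratio was -0.43 in Pi16-negative members and 1.73 in those with at least 2 Pi16 UMIs, and 5 nuclei held 46.7% of its CF-KI UMIs. Of 8 Wnt genes tested, Ccn5, a secreted CCN protein, was lowest with 35 and 211 UMIs (log2 -1.65, -2.23 to -1.14). Gli1, the hedgehog target that marks perivascular mesenchyme, had 4 and 28 UMIs.

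Activation genes showed no common direction: of 14 tested, 6 were above and 8 below 0, with a median of -0.04. Postn, the periostin gene of activated fibroblasts, was at 123 CPM (102 to 145) in CF-KI and 293 CPM (270 to 317) in Control. Its UMIs lay in few nuclei, 8.36% and 9.02% of members, so the share of nuclei with Postn was alike and the UMIs per nucleus were not. The log2 ratio was -0.19 (-0.93 to 0.51) in Pi16-negative members and -1.60 (upper end -1.23) in those with at least 2 Pi16 UMIs. Acta2, the smooth muscle actin of myofibroblasts, had 22 and 18 UMIs. Tendon and valve type matrix genes went both ways, with 4 of 7 intervals below 0 and 2 above. Cilp was at 121 and 239 CPM, Comp had 20 and 91 UMIs, and Thbs4 4 and 32, of which 5 nuclei held 87.5% in Control. Prg4, which encodes lubricin, was higher in CF-KI at 67.3 and 34.9 CPM, and Fmod had 14 and 11 UMIs (log2 1.26, 0.03 to 2.56).

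Of 20 adventitial genes outside the rule, 0 differed 2-fold, 6 had intervals above 0 and 3 below, with a median log2 ratio of 0.20. That median was -0.32 among the 15 CF-KI and 249 Control members with at most 5% mitochondrial UMIs. Gfpt2 was at 390 and 219 CPM (log2 0.83, 0.63 to 1.03), Dpp4 at 92.6 and 55.6 CPM and Ugdh at 207 and 149 CPM (log2 0.48). Cd248, Mfap5 and Sema3c had log2 ratios of 0.04, -0.02 and 0.09 with intervals that hold 0. Ly6a was lower, at 357 and 470 CPM. In members with at least 2 Pi16 UMIs the median was 0.40, with 10 of 18 intervals above 0. Over all genes in those members, 711 of 8634 intervals lay above 0. The list's median was 0.27 in collagen-rich other fibroblast nuclei, 0.41 in mesothelial nuclei and -0.13 in endothelial nuclei. Gfpt2, Dpp4, Ugdh, Cd248, Mfap5 and Sema3c are named here for the Pi16 pattern, with their values known.

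**Figure D4:**
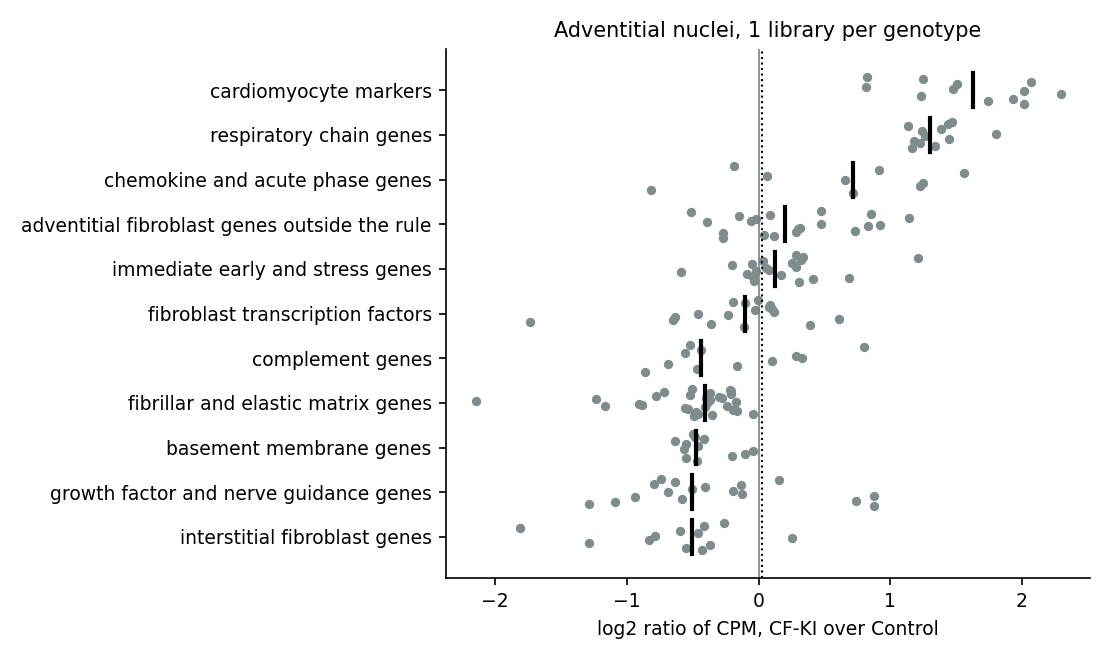
Log2 ratio of CPM, CF-KI over Control (horizontal axis), in adventitial nuclei for each gene (grey points) of 11 lists (rows), with the list's median as a black bar and the median of all genes tested, 0.03, as a dotted line. The respiratory chain genes and cardiomyocyte markers lie to the right of 0, and the matrix and interstitial genes mostly to the left.

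Of 9 chemokine and acute phase genes, 3 were 2-fold higher in CF-KI, 5 had intervals above 0 and 1 below, and 7 had a ratio above 0, with a median of 0.72. With at most 5% mitochondrial UMIs, which left 15 CF-KI members, that median was -0.44. Cxcl1, which draws neutrophils, had 39 and 25 UMIs (36.5 and 12.3 CPM, log2 1.56), and Ccl7 had 49 and 39. Ccl2 had 185 UMIs in 38 CF-KI nuclei and 150 in 21 Control nuclei (log2 1.23), and 5 nuclei held 56.8% and 86.0% of them. Without those 5 nuclei of each library its log2 ratio was 2.83. Endothelial nuclei gave similar ratios of 1.27 for Ccl2 and 1.38 for Cxcl1. Of 20 immediate early and stress genes, 5 had intervals above 0 and 1 below, with a median of 0.13, which was -0.26 at the same 5% limit. Nr4a1, an orphan nuclear receptor, was widest at 78.6 and 34.0 CPM, and Hspa1b, a heat shock gene, lowest at 18.7 and 28.5 CPM.

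Of 15 inflammasome and interleukin-1 genes, 9 had enough UMIs and 0 of those differed 2-fold, with a median of 0.15. P2rx7, the ATP receptor upstream of NLRP3, had 15 and 16 UMIs, Il33 34 and 44, and Pycard, the adaptor of NLRP3, 23 and 38. Txnip was lower at 416 and 496 CPM (log2 -0.25, -0.42 to -0.09). Of 11 complement genes, 6 had intervals below 0 and 2 above. C1ra, a protease of the classical pathway, was at 138 and 252 CPM, and Clu at 72.0 and 41.3 CPM. Among prostaglandin genes Ptgds was at 86.0 and 25.1 CPM (log2 1.77), and in endothelial nuclei at 97.3 and 41.7 CPM. Fabp4, a fatty acid carrier of capillaries, was at 686 and 243 CPM and made up 9714 and 7306 CPM in endothelial nuclei. Dhrs3, a retinaldehyde reductase, was at 39.3 and 83.7 CPM, and Angptl4 at 13.1 and 43.3 CPM.

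All 12 respiratory chain genes were at least 2-fold higher in CF-KI, with a median of 1.30, and so were 10 of 12 cardiomyocyte markers, with a median of 1.63. Among the 12 highest genes overall stood Cox7a1, Nppb, Myl2, Sh3bgr and Chchd10, which heart muscle expresses strongly, and Hbb-bt, of whose CF-KI UMIs 5 nuclei held 69.0%. Myl2, a myosin light chain of ventricular muscle, was at 2385 and 486 CPM in members, 2565 and 832 CPM in endothelial nuclei, and 1704 and 485 CPM in mesothelial nuclei. The remaining highest genes were AA465934 (64 and 2 UMIs), Gm8797 (104 and 5), Ctla2a, Nr1d1, S1pr1 and Ccl21a. AA465934 and Gm8797 were higher by similar amounts in endothelial nuclei (log2 6.39 and 4.90).

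The 12 lowest genes in CF-KI held at least 5 transcripts known from airway epithelium. Scgb1a1 had 0 and 490 UMIs, at least 85.9-fold lower with the CF-KI count set to 3 UMIs. By the same floor Bpifa1 was at least 45.6-fold lower, Cyp2f2 at least 11.8-fold and Scgb3a2 at least 9.12-fold, and Wfdc2 had 2 and 62 UMIs (log2 interval -7.11 to -2.11). Aspa (12 and 118 UMIs), Cbr2, Fmnl1, Fbxl6 and Dnase1l1 followed. Cbr2 had log2 ratios of -2.60 in members, -2.63 in mesothelial nuclei, -2.22 in collagen-rich other fibroblast nuclei and -1.77 in endothelial nuclei. Aspa had a log2 ratio of -2.32 (-3.36 to -1.51) in members, -2.24 (-5.69 to -0.41) in mesothelial nuclei, -1.49 (-3.68 to 0.09) in collagen-rich other fibroblast nuclei and -0.09 (-0.74 to 0.59) in endothelial nuclei. The clock genes Nr1d1 (118 and 50 UMIs), Cry1 (1 and 69; log2 interval -10.51 to -2.66) and Per2 (7 and 67) were among the extremes in both directions. Of 13 clock genes, listed after this was seen and counted with no UMI minimum, 4 had intervals above 0 and 5 below. Ciart, 1 of the 4 above, had only 5 and 0 UMIs. Endothelial nuclei had log2 ratios of 1.32, -1.11 and -1.32 for Nr1d1, Cry1 and Per2. The labels give no time of collection.

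**Figure D5:**
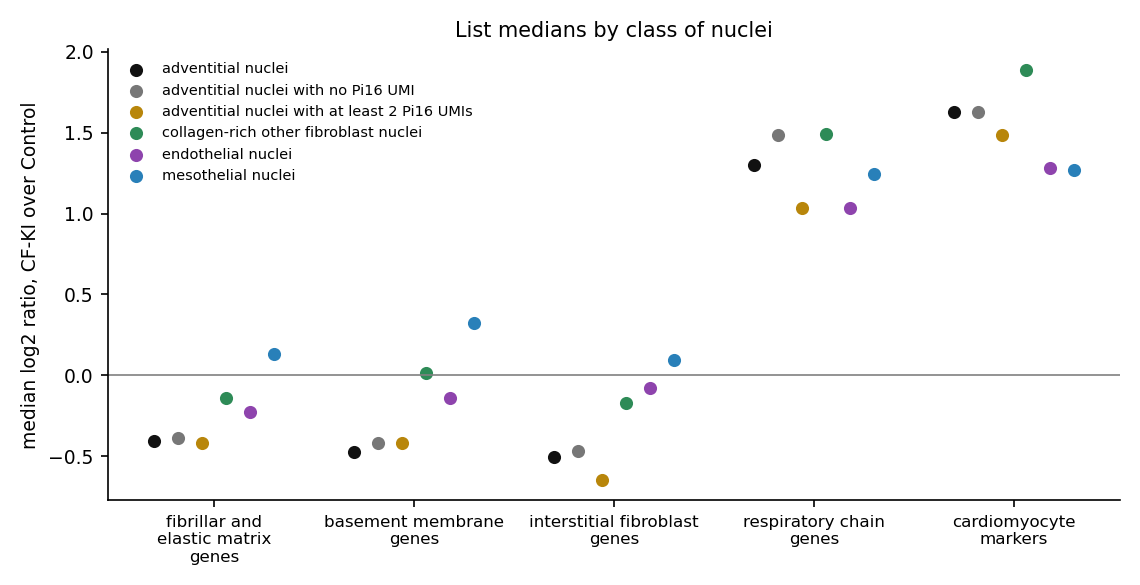
Median log2 ratio, CF-KI over Control (vertical axis), of 5 gene lists (horizontal axis) in 6 classes of nuclei, each a coloured point. Adventitial nuclei and both their Pi16 subsets lie between -0.39 and -0.65 for the matrix, basement membrane and interstitial lists, below the other fibroblast, endothelial and mesothelial nuclei, while all 6 classes lie above 1 for the respiratory chain genes and cardiomyocyte markers.

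Side by side, the respiratory chain and cardiomyocyte medians were high in every class of nuclei examined, whereas the matrix medians were not low in every class. Respiratory chain genes had medians of 1.49 in collagen-rich other fibroblast nuclei, 1.04 in endothelial nuclei and 1.25 in mesothelial nuclei. Fibrillar matrix genes had medians of -0.14, -0.23 and 0.13 in those 3 classes, and -0.39 in Pi16-negative members and -0.42 in members with at least 2 Pi16 UMIs. Basement membrane genes had medians of 0.01, -0.14 and 0.32 in the 3 classes, against -0.42 in both of those groups of members. Whether the genotype difference itself differed between classes was not tested, since each genotype is 1 library. After free RNA, estimated from cardiomyocyte markers, was subtracted from each library, the fibrillar matrix median in members was -0.14.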

How the data were processed

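Nuclei were profiled with the 10x Genomics 3′ v3 kit, per the labels' protocols. The values the authors deposited are raw counts of UMIs for every gene in every barcode, made with Cell Ranger 6.1.1 on mm10, per the submitters' processing notes. Every deposited barcode had at least 500 UMIs, with 21603653 UMIs in CF-KI and 18040776 in Control. Members and gene lists were chosen with earlier results of these data known, and the Pi16 classes, the collagen-rich comparator and the clock list after these data were seen. UMIs were summed over members of a library, mitochondrial genes were left out, and ratios added 0.5 UMI to each count. Genes needed 20 UMIs over both libraries. A call required a 2-fold difference and a conditional exact binomial 95% interval excluding 0. Shares have Clopper-Pearson intervals, levels exact Poisson intervals. PCR duplicates were collapsed by UMI, and intervals cover counting error only. Calls were tested on simulated Poisson counts, the model that the intervals assume. That simulation had no clustering of UMIs in few nuclei, so it cannot show how calls behave where UMIs cluster. Doublets were called with Scrublet in scanpy 1.11.5 and kept. Alternative scalings used edgeR 4.0.16 (TMM) and DESeq2 1.42.0 (median of ratios), with no test. Nuclei were counted as endothelial with 3 of 9 markers, and as mesothelial with 3 of 6. Named genes were the 12 highest and 12 lowest with at least 50 UMIs, likewise between classes of nuclei (5 each way against mesothelial nuclei), the 3 highest and 3 lowest of each list, and the rule genes. Promoters are from RefSeq on GRCm38.p6. Some genes that these rules select are not reported here.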

Additional observations from a re-analysis of the deposited data

How the results depend on the processing

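No paired analysis was possible because each genotype has 1 library, so no fit has residual error. The share of adventitial nuclei stayed lower in CF-KI in every alternative run: the difference was -2.98 percentage points at a limit of 5% mitochondrial UMIs, -3.99 with at least 4 rule genes, -4.23 with no UMI of the exclusion genes, -2.67 after thinning to 500 UMIs, -12.6 of fibroblast nuclei, -14.4 of collagen-rich fibroblast nuclei and -3.01 for members with at least 2 Pi16 UMIs. The last 2 were chosen after seeing the data, as were all alternatives for the Pi16 classes and the collagen-rich comparator. The 5% limit left 15 CF-KI and 249 Control members; there 152 genes were higher in CF-KI and 157 lower, and 4 list medians changed sign, to -0.32 for adventitial genes outside the rule, -0.26 for immediate early genes, -0.24 for inflammasome genes and -0.44 for chemokine genes, as did Wfdc2 at 1.14. Subtracting free RNA, estimated from cardiomyocyte markers, gave 350 genes higher and 455 lower, a fibrillar matrix median of -0.14 and a reversed erythroid median of -7.58. A minimum of 100 UMIs gave 163 genes higher and 37 lower. In members with at least 2 Pi16 UMIs the complement median was reversed, at 0.13. Over other fibroblast nuclei, the CF-KI median of the adventitial genes was 1.34 after thinning, 2.35 at 5% mitochondrial UMIs and 1.11 against collagen-rich nuclei, and the Control median 1.12 against these when 20 UMIs were required within the library. Between Pi16 classes the CF-KI median was 1.41 after thinning, 3.36 at 5% mitochondrial UMIs and 1.41 with at least 2 against 0 Pi16 UMIs, and the Control median 1.29 and 1.06 for the first and last. The causes were not tested. TMM and median-of-ratios scaling moved the median of all genes from 0.03 to 0.01.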
